A study of Mus musculus with 48 samples.

Results

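The catalytic subunits of the mammalian COMPASS complexes are encoded by 6 genes, Setd1a, Setd1b, Kmt2a, Kmt2b, Kmt2c and Kmt2d, and their transcripts were followed in the hippocampal CA region of Setd1b cKO and control mice. The 6 were chosen by symbol as a named gene family, and each matched 1 Ensembl ID among the 48709 IDs of the neuron RNA files and the 47729 IDs of the whole CA RNA files. The IDs are ENSMUSG00000042308 for Setd1a, ENSMUSG00000038384 for Setd1b, ENSMUSG00000002028 for Kmt2a, ENSMUSG00000006307 for Kmt2b, ENSMUSG00000038056 for Kmt2c and ENSMUSG00000048154 for Kmt2d. All mice were adult C57BL/6J animals of 4 to 6 months. RNA came from CA neurons (3 libraries labelled Setd1b cKO, 3 labelled Control) and from whole CA tissue (6 of each). Peaks of H3K4me3, H3K4me1, H3K27ac and H3K9ac came from sorted, fixed neuronal nuclei, with 4 libraries of each genotype except for H3K27ac (4 cKO, 3 control) and H3K9ac (3 cKO, 4 control). The Cre driver, the deleted exons and any pooling of animals are not given in the sources used here, and the labels give the control genotype only as Control.

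COMPASS complexes place methyl groups on lysine 4 of histone H3. The methyl transfer is carried out by the SET domain of the catalytic subunit, which works only when bound to a shared core of Wdr5, Rbbp5, Ash2l and Dpy30. SETD1A and SETD1B, with Cxxc1 and Wdr82, are known for trimethylation (H3K4me3) at active promoters. KMT2A and KMT2B, with menin (Men1), act at subsets of promoters, and KMT2C and KMT2D, with Kdm6a, Ncoa6, Paxip1 and Pagr1a, place monomethylation (H3K4me1) at enhancers. Several of these genes are linked to neurodevelopmental disorders, and Kmt2a and Kmt2b are known to be needed for memory in the mouse forebrain.

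In GRCm38.p6, the RefSeq spans of the 6 genes were chr7:127777389-127800122 for Setd1a, chr5:123142040-123168630 for Setd1b, chr9:44803355-44881352 for Kmt2a, chr7:30568855-30589056 for Kmt2b, chr5:25271795-25498855 for Kmt2c and chr15:98831669-98874077 for Kmt2d. A promoter sequence from RefSeq was matched for 4 of the 6, Setd1a, Kmt2a, Kmt2c and Kmt2d. They are shown as the sequence next to the H3K4me3 peaks described further on. Each is the 250 bases before an annotated start, 5′ to 3′ on the gene's own strand, at chr7:127777139-127777388 (plus strand), chr9:44881290-44881539 (minus), chr5:25498784-25499033 (minus) and chr15:98871206-98871455 (minus), with CpG dinucleotides in capitals. The Kmt2d stretch lies inside the gene span, before an internal start, and those of Kmt2a and Kmt2c overlap the ends of their spans.
Setd1a: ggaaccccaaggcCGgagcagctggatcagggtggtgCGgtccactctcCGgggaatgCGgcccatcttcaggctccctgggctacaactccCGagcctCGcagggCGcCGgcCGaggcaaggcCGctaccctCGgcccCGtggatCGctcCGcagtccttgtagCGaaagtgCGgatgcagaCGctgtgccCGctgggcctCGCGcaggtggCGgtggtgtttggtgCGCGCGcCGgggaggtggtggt
Kmt2a: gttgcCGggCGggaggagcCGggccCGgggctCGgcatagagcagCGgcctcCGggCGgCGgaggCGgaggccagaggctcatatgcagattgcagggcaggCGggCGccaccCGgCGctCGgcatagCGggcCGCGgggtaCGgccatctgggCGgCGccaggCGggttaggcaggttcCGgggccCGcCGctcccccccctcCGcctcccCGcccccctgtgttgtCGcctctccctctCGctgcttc
Kmt2c: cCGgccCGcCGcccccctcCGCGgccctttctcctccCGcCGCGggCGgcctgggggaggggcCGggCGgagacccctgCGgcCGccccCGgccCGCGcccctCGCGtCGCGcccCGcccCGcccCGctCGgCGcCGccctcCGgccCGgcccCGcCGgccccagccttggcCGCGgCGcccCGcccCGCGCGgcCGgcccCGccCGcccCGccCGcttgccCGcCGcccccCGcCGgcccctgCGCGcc
Kmt2d: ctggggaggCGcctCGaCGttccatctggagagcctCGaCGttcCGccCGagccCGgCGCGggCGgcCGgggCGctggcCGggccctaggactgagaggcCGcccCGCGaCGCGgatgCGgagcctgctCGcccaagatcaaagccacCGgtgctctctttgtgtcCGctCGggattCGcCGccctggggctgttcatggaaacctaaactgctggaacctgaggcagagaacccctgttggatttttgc
Kmt2c held 48 CpG in these 250 bases, at the 99.8th percentile of 32851 mouse promoters of the same length. Kmt2a held 29, Kmt2d 26 and Setd1a 25, against a median of 6. The share of G and C was 91.6% for Kmt2c, 76.8% for Kmt2a, 70.4% for Setd1a and 67.6% for Kmt2d, against a median of 52.4%. On either strand, the GC box GGGCGG, a motif that binds Sp-family factors, was found 12 times for Kmt2c and 4 times each for Kmt2a and Kmt2d, and these letters were not in the Setd1a window. It is present in 32.7% of all promoters. The letters CCGGAAG (ETS factors, 6.91% of promoters), TGACGT (the core of the cyclic AMP response element, 6.47%) and CACGTG (an E-box, 6.02%) were not in these 4 windows. Overlapping matches were counted separately.

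Depth was 55.7 to 69.1 M reads for a neuron library and 14.9 to 20.1 M for whole CA, and the 6 genes had between 334 and 45310 reads per library, fewest for Setd1a in whole CA RNA, where counting error weighs most. Levels are CPM, counts scaled to the library total. Against whole CA RNA, summed glial markers were low in neuron RNA (astrocyte 313 to 418 against 4092 to 4847 CPM, oligodendrocyte 115 to 137 against 3628 to 5465, microglia 8.21 to 9.61 against 229 to 316). Neuron markers were present in both materials (4539 to 4967 against 10255 to 12128 CPM), and no marker of any list was at 0 in all libraries of a group. All neuron libraries held reads of Xist and of Y-linked genes together. In whole CA RNA, cKO 6 and control 4 held 8489 and 9663 Xist reads and at most 2 reads of each Y-linked gene. The other 10 held at most 5 Xist reads and at least 649 reads of each Y-linked gene. Setd1b, the targeted gene, was not lower in libraries labelled cKO in either material. The counts cover the whole gene and do not measure the deleted exons, and genotypes are given as the libraries were labelled.

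Reads of the 6 genes fell into 1 order of mean CPM in all 4 RNA groups, Kmt2a, Kmt2c, Kmt2d, Kmt2b, Setd1b and Setd1a from most to fewest. CPM grows with transcript length, and no transcript lengths were at hand, so this is an order of reads and not of transcript numbers. Per kb of gene span, introns included, the order differed: Kmt2c was last in all 4 groups, and Kmt2b was first in whole CA RNA and behind Kmt2a in neuron RNA. The mean sum over the 6 genes was 1437 ± 177 CPM in control neuron RNA (SD, n = 3) and 1523 ± 181 CPM in cKO neuron RNA (SD, n = 3). In whole CA RNA it was 547 ± 54.1 CPM in controls (SD, n = 6) and 591 ± 44.9 CPM in cKO (SD, n = 6). Kmt2a alone took 45.9% of that sum in control neuron RNA and 35.9% in control whole CA RNA (group means).

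Among reads, Kmt2a lay above Kmt2c in every library, and the ranges of both did not overlap in any group. Kmt2c and Kmt2d overlapped in cKO neuron RNA only, where the lowest Kmt2c value was 288 and the highest Kmt2d value 294 CPM. Kmt2d and Kmt2b overlapped in control neuron RNA and in cKO whole CA RNA. Setd1b and Setd1a overlapped in control neuron RNA, where Setd1b was above Setd1a in 2 of 3 libraries. In the other 3 groups Setd1b was above Setd1a in every library. Setd1b passed Kmt2b in 1 library, cKO 2 of whole CA RNA, which gave it rank 4 there and rank 5 or 6 elsewhere.

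**Figure D1:**
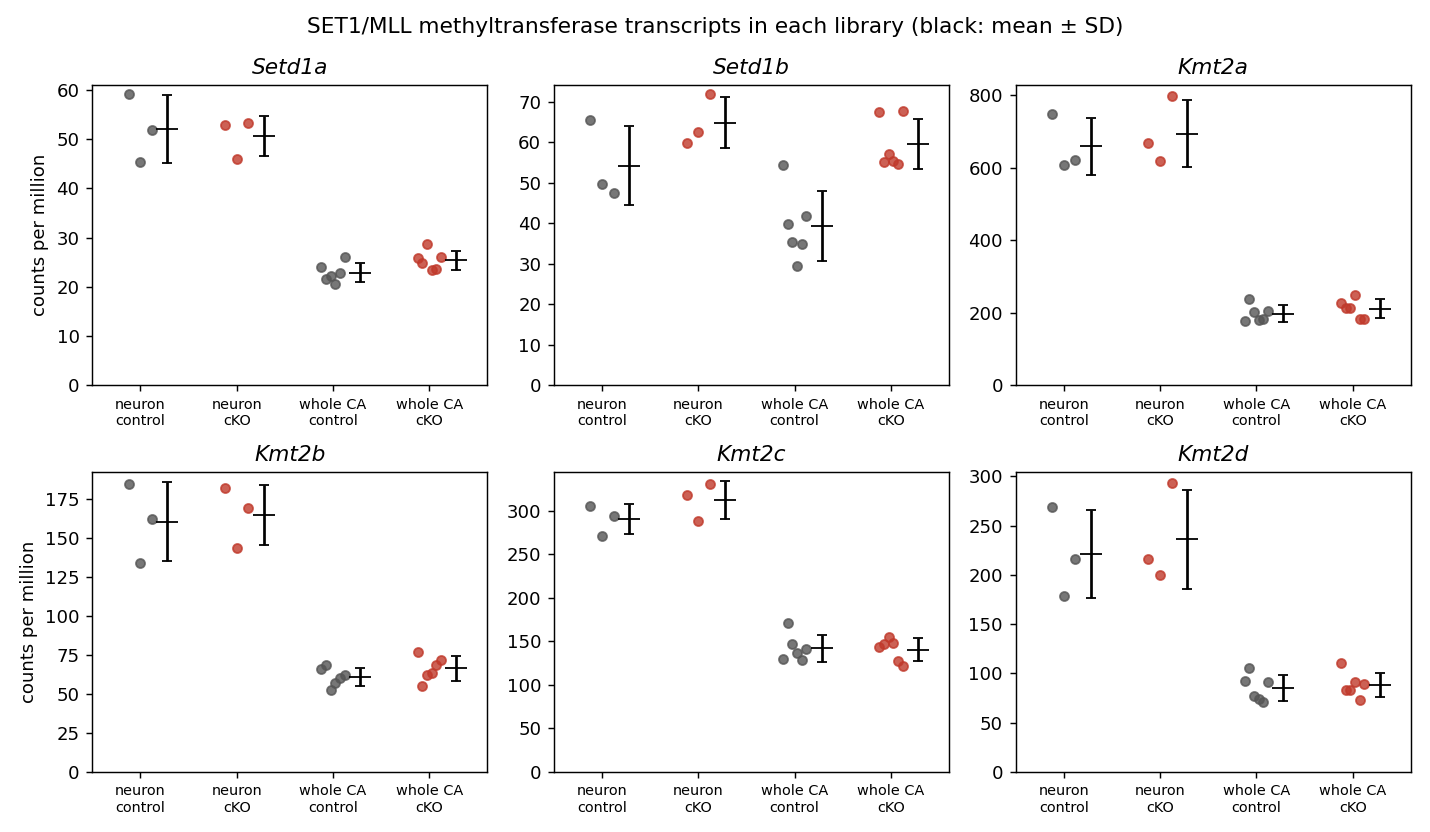
CPM (y axis, linear from 0, a separate scale per gene) of each of the 6 genes in every RNA library, grouped on the x axis by material and genotype, with the group mean ± SD in black beside the points. The genes other than Setd1b lie higher in neuron RNA than in whole CA RNA with little difference between genotypes, and Setd1b alone has all 6 whole CA cKO libraries above all 6 controls.

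Whether the other 5 genes were higher where Setd1b was targeted was asked first in neurons. In neuron RNA, 0 of the 6 genes passed an edgeR adjusted p under 0.05, against 2.75% of the 19622 genes tested. At an unadjusted p under 0.05 the count was 0 of 6 as well, against 17.2% of all genes, and DESeq2 called 0. For 0 of 6 were the genotypes without overlap, against 12.5% of genes in the higher and 11.1% in the lower direction. The median log2 fold change (cKO over control) of the 6 was 0.07, beside 0.02 over all genes tested.

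Setd1a, the closest paralog of Setd1b, stood at 59.1, 45.4 and 51.9 CPM in control neuron libraries 1 to 3 and at 52.8, 46.1 and 53.2 CPM in cKO libraries 1 to 3. All 3 cKO values lay within the control range. The log2 fold change was −0.05 (95% confidence interval −0.30 to 0.19, edgeR adjusted p 0.843).

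Setd1b itself, with 49.7 and 47.6 CPM in control libraries 2 and 3 but 65.4 in control 1, had a log2 fold change of 0.25 (−0.04 to 0.53, edgeR adjusted p 0.361) in neuron RNA. Control 1 reached into the cKO range of 59.9 to 72.1 CPM. Without control 1 it was 0.40 (edgeR adjusted p 0.0656), and over the alternatives the adjusted p ran from 0.0656 to 0.662.

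Kmt2a, which encodes the MLL1 enzyme, stood at 748, 607 and 621 CPM in control libraries 1 to 3 and at 668, 617 and 797 CPM in cKO libraries 1 to 3. Kmt2b, its closest paralog, stood at 185, 134 and 162 CPM in controls and at 182, 144 and 169 CPM in cKO. The genotypes overlapped for both, with log2 fold changes of 0.06 (−0.22 to 0.35, edgeR adjusted p 0.834) and 0.03 (−0.27 to 0.32, edgeR adjusted p 0.931).

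Kmt2c, an enhancer monomethyltransferase, stood at 306, 271 and 294 CPM in controls and at 317, 288 and 331 CPM in cKO. Kmt2d, its paralog and the gene of Kabuki syndrome, stood at 269, 179 and 216 CPM in controls and at 216, 200 and 294 CPM in cKO. Control 2 was lowest and cKO 3 highest for Kmt2d, and the groups overlapped for both genes. The log2 fold changes were 0.09 (−0.12 to 0.30, edgeR adjusted p 0.648) for Kmt2c and 0.08 (−0.30 to 0.47, edgeR adjusted p 0.841) for Kmt2d.

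For the 5 genes other than Setd1b, the upper 95% bounds of the fold in neuron RNA were 1.14 for Setd1a, 1.27 for Kmt2a, 1.25 for Kmt2b, 1.23 for Kmt2c and 1.38 for Kmt2d. These bounds are ends of intervals from 3 libraries a group and not the smallest rises that edgeR could call. The smallest rise that could be called was not tested for these 5 genes. Their summed level was 1383 ± 168 CPM in controls and 1458 ± 175 CPM in cKO (SD, n = 3 each), given as a description.

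In whole CA RNA, Setd1b was the only one of the 6 that passed the test, and it was higher in cKO. An edgeR adjusted p under 0.05 with a higher level was reached by 1 of 6, against 1.38% of the 15362 genes tested (4.17% in either direction). Groups without overlap, higher in cKO, were also seen for 1 of 6, against 1.43% of genes, and 0 of 6 were lower without overlap, against 1.78%. The median log2 fold change of the 6 was 0.10, beside 0.00 over all genes tested.

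Setd1b ran from 29.5 to 54.4 CPM in the control libraries, with a median of 37.6, and from 54.6 to 67.6 CPM in cKO, with a median of 56.3. The lowest cKO library lay just above control 1, the highest control, and the other 5 controls were at or below 41.9 CPM. The fold was 1.50 (1.27 to 1.77) and its edgeR adjusted p 0.00415. Within the sequencing lanes named in the files, with 3 libraries a genotype in each, lane 1 gave 0.49 (edgeR adjusted p 0.0994) and lane 2 gave 0.69 (edgeR adjusted p 0.0162) on the log2 scale. Without cKO 6 and control 4, the libraries with high Xist, it was 0.49 (edgeR adjusted p 0.0108), and over the 22 alternatives the adjusted p ran from 1.98e-05 to 0.0994.

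Setd1a ran from 20.6 to 26 CPM in the controls (median 22.5) and from 23.4 to 28.6 CPM in cKO (median 25.3). The groups overlapped, with a log2 fold change of 0.14 (−0.03 to 0.31, edgeR adjusted p 0.453). Kmt2a ran from 175 to 237 CPM in controls (median 192) and from 182 to 247 CPM in cKO (median 213). Its log2 fold change was 0.09 (−0.09 to 0.27, edgeR adjusted p 0.703), also with overlap.

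Kmt2b ran from 52.5 to 68.3 CPM in controls (median 61.3) and from 55.0 to 76.9 CPM in cKO (median 66.1), a log2 fold change of 0.10 (−0.06 to 0.27, edgeR adjusted p 0.602). Kmt2c ran from 129 to 170 CPM in controls (median 139) and from 122 to 154 CPM in cKO (median 145), a log2 fold change of −0.03 (−0.19 to 0.14, edgeR adjusted p 0.919). Kmt2d ran from 70.4 to 106 CPM in controls (median 83.9) and from 72.7 to 110 CPM in cKO (median 85.9), a log2 fold change of 0.04 (−0.18 to 0.25, edgeR adjusted p 0.921). All 3 overlapped between genotypes. The upper 95% bounds of the fold of these 5 genes in whole CA RNA ran from 1.10 for Kmt2c to 1.24 for Setd1a, so none of the 5 had an interval that reached the Setd1b fold of 1.50.

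The share of Setd1b in the summed CPM of the 6 genes describes the same data from within each library. It was 4.01, 3.86 and 3.42% in control neuron libraries 1 to 3 and 4.00, 4.61 and 4.20% in cKO neuron libraries 1 to 3. In whole CA RNA it ran from 5.95 to 10.1% in controls (median 6.81%) and from 8.82 to 12.1% in cKO (median 9.92%). The genotypes overlapped in both materials, through control 1 in each.

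The ratio of Setd1b to Setd1a counts separates the SET1 paralogs from library size. It was 1.11, 1.10 and 0.917 in control neuron libraries 1 to 3 and 1.13, 1.36 and 1.35 in cKO neuron libraries 1 to 3. In whole CA RNA the ratio ran from 1.43 to 2.26 in controls (median 1.61) and from 1.99 to 2.62 in cKO (median 2.34). Whole CA control 1, at 2.26, was the only control above the lowest cKO library.

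Cell type markers, neuronal ones among them, moved with genotype in the same whole CA libraries, and their part in the Setd1b result was not tested. Of 40 cell type markers, 0 were higher and 8 were lower in cKO, against 1.38% of all genes called higher and 2.79% lower. By list they were Map2 (neuron), Wfs1, Neurod6 and Grik4 (CA pyramidal), Dsp (dentate granule), Aqp4 (astrocyte), Cx3cr1 (microglia) and Kl (choroid plexus). The summed level of the 5 microglial markers was 229 to 255 CPM in cKO and 260 to 316 CPM in controls. That of the 3 choroid plexus markers was 16.8 to 20.2 and 29.5 to 36.6 CPM, but only Kl of these 3 was called (log2 fold change −1.04). Kl stood at −1.07 in neuron RNA as well, so this sum is not read as choroid plexus content. The summed neuron markers overlapped (10255 to 12046 and 11146 to 12128 CPM). In these bulk libraries, fewer cells of a type and less RNA per cell cannot be told apart. In neuron RNA, where Setd1b was not called, 37 of the 40 markers were tested, and 0 were higher and 5 lower (Wfs1, Neurod6, C1ql2, Dsp and Kl), against 0.744% and 2.0% of all genes.

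A difference between the genotype effects of neuron and whole CA RNA was not detected for any of the 6. In 1 edgeR fit of all 18 RNA libraries, 0 of 6 passed, against 0.16% of the 17523 genes tested. At an unadjusted p under 0.05 it was 0 of 6 as well, against 8.11% of genes, and DESeq2 called 0. For Setd1b, the neuron effect minus the whole CA effect was −0.34 on the log2 scale (−0.73 to 0.06, edgeR adjusted p 0.641). The other differences ran from −0.18 for Setd1a to 0.13 for Kmt2c.

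**Figure D2:**
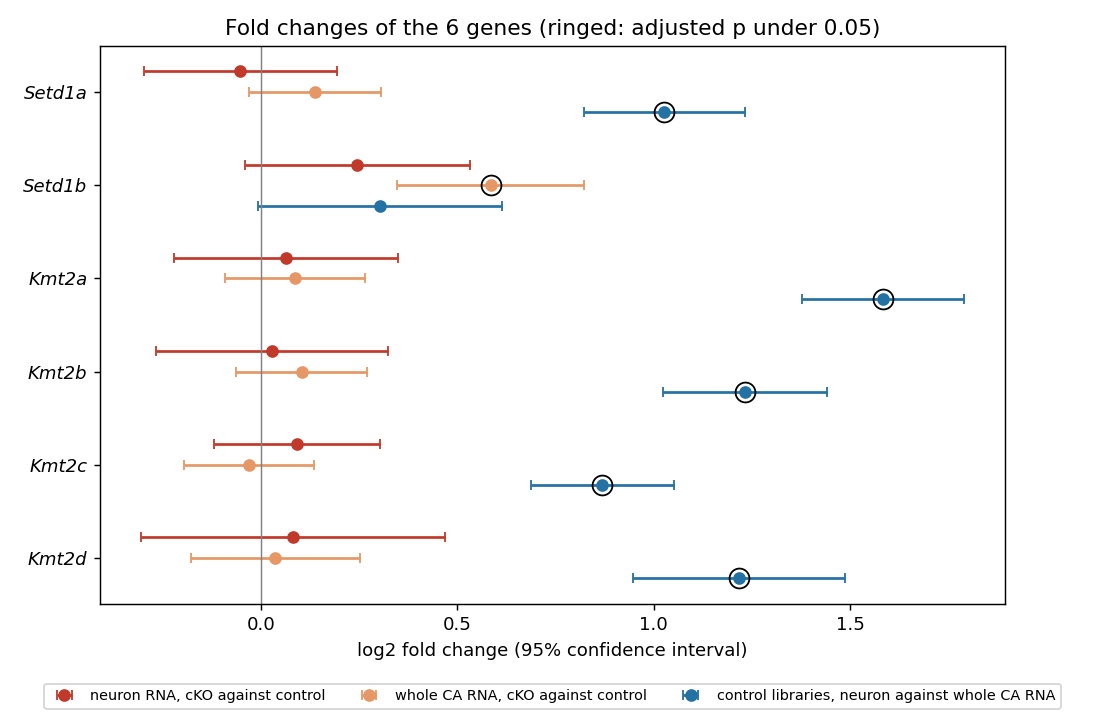
Log2 fold change (x axis) of the 6 genes (y axis) with 95% confidence intervals, for the genotype contrast in each material and for control neuron against control whole CA RNA, with rings around values at an edgeR adjusted p under 0.05. The genotype effects lie around 0 except for Setd1b, at 0.59 in whole CA RNA and at 0.25 in neuron RNA, where its interval includes 0. Between the materials 5 genes lie at 0.87 to 1.58 and Setd1b at 0.30.

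Between the control libraries of both materials, 5 of the 6 genes were higher in neuron RNA, and Setd1b was not called. An edgeR adjusted p under 0.05 with a higher level in neuron RNA was reached by 43.6% of the 16859 genes tested, and 83.6% were called in either direction, so a call by itself is common here. The median log2 fold change (neuron over whole CA) of the 6 was 1.12, beside 0.07 over all genes tested.

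Kmt2a had the largest log2 fold change of the 6, 1.58 (1.38 to 1.79, edgeR adjusted p 1.62e-10). Kmt2b and Kmt2d followed with folds of 2.35 (2.03 to 2.71) and 2.33 (1.93 to 2.81). Setd1a was 2.04 times higher (1.77 to 2.35) and Kmt2c 1.83 times (1.61 to 2.07). These 5 had no overlap between the materials, a pattern seen in the higher direction for 44.9% of all genes.

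Setd1b had a fold of 1.23 (0.995 to 1.53, log2 0.30, edgeR adjusted p 0.0651), with control 1 of whole CA at 54.4 CPM inside the neuron range of 47.6 to 65.4 CPM. Its upper log2 bound of 0.61 lay below the lower bounds of the other 5, of which the lowest was 0.69 for Kmt2c. The call depended on single libraries and on scaling: leaving out whole CA control 1 gave 0.39 (edgeR adjusted p 0.00733), neuron control 2 gave 0.37 (0.0495), neuron control 3 gave 0.39 (0.0395) and neuron control 1 gave 0.15 (0.358). With library size only it was 0.47 (edgeR adjusted p 0.00707), while the median of all genes moved from 0.07 to 0.23, and with no filter 0.37 (edgeR adjusted p 0.000693), with that median at 0.48. Other signs differed between the same control libraries, and their part in these results was not tested. Mitochondrial reads made up 0.00814 to 0.0128% of a neuron library, against 4.33 to 6.17% of a whole CA library. Of the 40 markers, edgeR called 4 higher and 32 lower in neuron RNA, against 43.6% and 40.1% of all genes. Neuron markers were among the lower ones (Map2 −1.22, Snap25 −1.87 and Camk2a −2.09 on the log2 scale), with sums of 4539 to 4831 against 11146 to 12128 CPM. All 3 dentate granule cell markers were higher (C1ql2 2.45, Dsp 1.17 and Prox1 0.66), with sums of 147 to 174 against 51.8 to 79.6 CPM. The way neuron RNA was isolated is not given in the sources used here, and the material cannot be told apart from its handling.

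The partners of these enzymes and other enzymes of histone lysine methylation were taken as 7 lists of 45 genes, of which 44 passed the filter on low counts and Pagr1a did not. In neuron RNA, edgeR called 0 of the 44, against 2.75% of all genes, and DESeq2 called 0. An unadjusted p under 0.05 was reached by 2 (Kmt5c and Ncoa6), beside 17.2% of all genes. In whole CA RNA, 0 were higher and 1 was lower, Hcfc2, beside 2.79% of all genes called lower, and 2 had an unadjusted p under 0.05, beside 15.7% of all genes. The median log2 fold change over the 44 was 0.02 for neurons and 0.01 for whole CA.

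Among the 4 core subunits, 0 were called in either material. Wdr5, the WD-repeat scaffold, had log2 fold changes of −0.12 in neurons and 0.05 in whole CA, and Dpy30 0.07 and −0.06. Among the 4 SET1 partners 0 were called, and Cxxc1, the CpG-binding subunit of the SETD1 complexes, had −0.12 and 0.10.

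Among the 4 partners of Kmt2a and Kmt2b, Hcfc2, a host cell factor, was lower in whole CA RNA with a log2 fold change of −0.24 (edgeR adjusted p 0.0417, no overlap between genotypes) and stood at 0.09 in neuron RNA (edgeR adjusted p 0.615). This call was lost in 15 of 22 alternatives, with adjusted p up to 0.383. Men1 had −0.18 and 0.12. Of the 3 tested partners of Kmt2c and Kmt2d, Ncoa6, a nuclear receptor coactivator, had 0.21 in neuron RNA (edgeR adjusted p 0.244) and 0.09 in whole CA RNA.

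Enzymes outside COMPASS gave 0 calls in both materials, over 7 other H3K4 methyltransferases, 6 H3K4 demethylases and 16 other histone lysine methyltransferases. Smyd3 and Setd7 had the log2 fold changes furthest from 0 among the well-expressed H3K4 enzymes in neuron RNA, at 0.15 and 0.12. Kdm1b, an H3K4 demethylase of the LSD family, had 0.11 in neurons and −0.17 in whole CA (edgeR adjusted p 0.652 and 0.461). Kmt5c, a writer of H4K20 methylation, had −0.41 in neuron RNA (edgeR adjusted p 0.158).

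**Figure D3:**
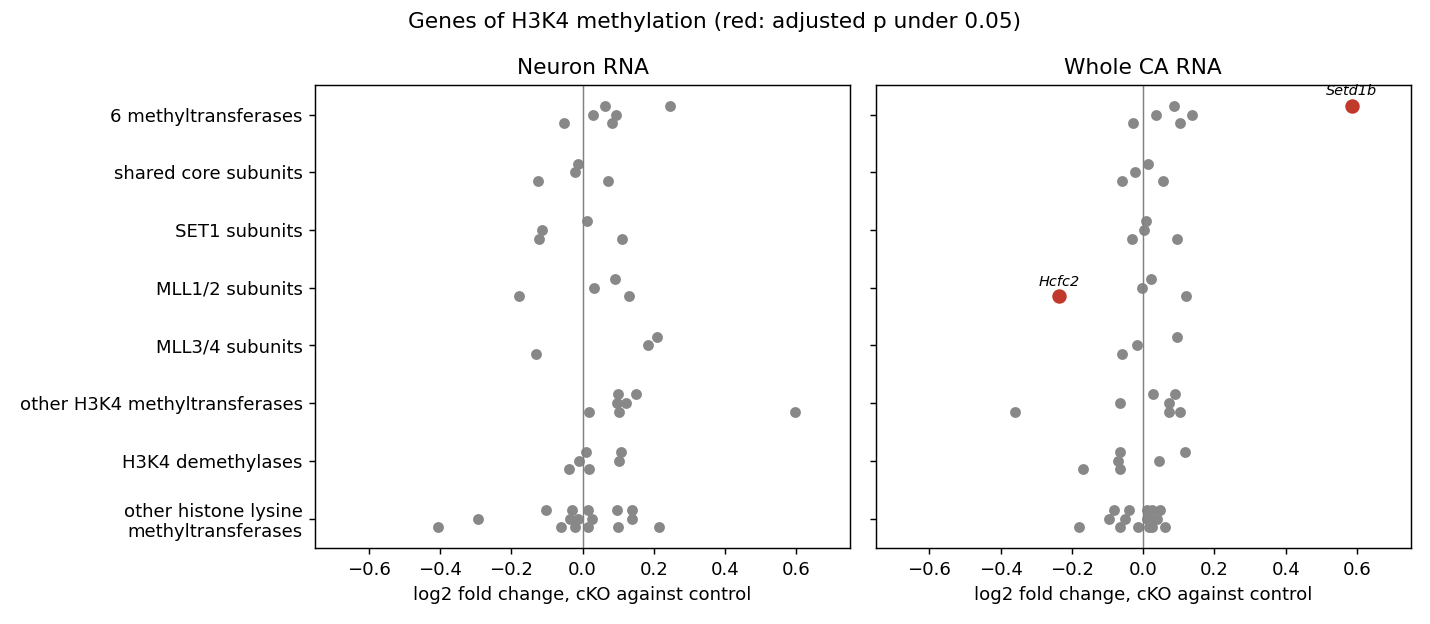
Log2 fold change of cKO against control (x axis) for each tested gene of the 6 methyltransferases and of 7 lists of partners and related enzymes (y axis), in neuron RNA (left) and whole CA RNA (right), with genes at an edgeR adjusted p under 0.05 in red and named. Only Setd1b at 0.59 and Hcfc2 at −0.24, both in whole CA RNA, are marked, and the other points scatter around 0.

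Over the 12 whole CA libraries, the transcripts whose centred log2 CPM followed each of 5 of the 6 genes most closely were found among 10351 genes, by the root mean square difference. For Setd1b they were Bmp1 (0.16), Ntng2 (0.17) and Pcdhga8 (0.18), and the nearest of the other 5 was Setd1a at 0.29. Bmp1, Ntng2 and Pcdhga8 were themselves higher in cKO (log2 fold changes 0.56, 0.47 and 0.69, edgeR adjusted p 0.000108, 0.0265 and 0.00169). Their likeness to Setd1b, taken over both genotypes, includes that shared difference. For Kmt2a they were Dst, Mga and Nup98 (0.05 to 0.07), and for Kmt2c Lrrc7, Kcnma1 and Helz (0.04 to 0.06). For Kmt2b they were Cd276, Naa10 and Zc3h18 (0.07 to 0.09) and for Kmt2d Lrp1, Zfhx2 and Bsn (0.07 to 0.10). A transcript with a flat level would score a gene's own root mean square around its mean. That was 0.37 for Setd1b, 0.16 for Kmt2a, 0.15 for Kmt2b, 0.14 for Kmt2c and 0.20 for Kmt2d. Kmt2a and Kmt2c were nearest to each other among the 6, at 0.09. These are descriptions over libraries that share lanes and depth.

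The histone marks at the starts of the 6 genes were measured in neuronal nuclei as the length covered by peaks within 5 kb either side of the start. For Setd1b and Kmt2b, the gene end with the longer H3K4me3 coverage was used, a choice made after seeing the peaks. It was position 123142040 on chromosome 5 for Setd1b (7180 to 8491 bp over the 8 libraries, against 0 to 380 bp at the other end) and position 30589056 on chromosome 7 for Kmt2b (2601 to 3290 bp against 391 to 651 bp). At the ends not used, H3K4me3 differed by 0.22 for Setd1b (limma adjusted p 0.827) and by −0.23 for Kmt2b (limma adjusted p 0.192) on the log2 scale. The start of 4831440E17Rik lies 1014 bp from that of Kmt2c, and that of Zbtb32 3886 bp from the end used for Kmt2b. Peaks there cannot be assigned to 1 gene alone. The windows also overlapped Gm32082 and Mir3569 at Kmt2b, Rhof at Setd1b, Orai3 at Setd1a and Gm39326 at Kmt2a. Covered length gives the extent of a called mark and not its height. The fold enrichment listed for the widest H3K4me3 peak at Setd1b was 38.1 to 41.8 in controls and 32.8 to 49.5 in cKO, with overlap. Differences in fold enrichment were not tested. For each genotype 1 input library was used, so input and genotype cannot be told apart.

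H3K4me3 covered 8372 bp on average at Setd1b in controls, at the 99.7th percentile of the 19725 starts tested. Kmt2a (98.4th) and Kmt2d (96.8th) were also among the longest, and Setd1a (70.0th) and Kmt2b (73.2nd) were nearer the middle. The ends of Setd1b and Kmt2b were chosen by this same coverage, so their percentiles are set against starts that were not so chosen. In cKO, 1 of 6 starts was called shorter with limma, against 27.4% of all starts (28.7% in either direction). The median log2 difference over all starts was −0.09.

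The called start was that of Kmt2c. It was covered over 4524, 4562, 4324 and 4437 bp in controls 1 to 4 and over 3372, 4005, 3822 and 3523 bp in cKO 1 to 4. All cKO values were shorter than all control values, with a log2 difference of −0.27 (SE 0.06, limma adjusted p 0.0104). Within 1 kb either side of the start the log2 difference was 0.01 (limma adjusted p 0.906). That window is shorter than the control peaks over this start (2264 to 2304 bp), so it could miss a shortening at the peak ends. In cKO the widest peak at this start was 1740 to 2113 bp, shorter without overlap, as at 26.2% of 17145 starts.

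Setd1b was covered over 8280, 8272, 8491 and 8443 bp in controls 1 to 4 and over 7180, 7750, 7804 and 7959 bp in cKO 1 to 4. Kmt2d was covered over 5790, 5752, 5841 and 5820 bp in controls and over 4385, 5241, 5548 and 4398 bp in cKO. Neither had overlap between the genotypes, as was seen in the shorter direction for 30.6% of all starts. The log2 differences were −0.13 for Setd1b (limma adjusted p 0.0583) and −0.25 for Kmt2d (limma adjusted p 0.0558). Kmt2a, Kmt2b and Setd1a overlapped between genotypes, with log2 differences of −0.07, −0.05 and −0.10.

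The window of 5 kb on each side cuts the Setd1b domain. The widest single H3K4me3 peak within 1 kb of the Setd1b start was 9951, 10118, 10394 and 10690 bp in controls 1 to 4 and 4160, 6893, 4565 and 7959 bp in cKO 1 to 4. In controls 21 to 31 peaks per library were wider, and in cKO 8 to 235. The mean length covered within 5 kb went from 8372 bp in controls to 7673 bp in cKO. This cKO mean lay above the mean widest peak of 5894 bp, so more than 1 peak was counted in some cKO libraries. Over all H3K4me3 peaks, the 99th percentile of width was 3497 to 3964 bp in cKO and 5283 to 5481 bp in control libraries. For the Setd1b peak the log2 difference was −0.84 (limma adjusted p 0.0242), a measure that called 19.7% of 17145 starts and had no overlap, in the shorter direction, at 26.2%. With 10 kb either side of the start it was −0.36 (limma adjusted p 0.00239, 26.2% of starts called).

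H3K4me1 gave 1 call among the 6 starts as well, again Kmt2c and again shorter, against 5.39% of the 24912 starts tested (6.84% in either direction). Kmt2c was covered over 7019, 4244, 4783 and 5355 bp in controls 1 to 4 and over 2251, 2693, 1987 and 2515 bp in cKO 1 to 4. Every cKO library was below every control, with a log2 difference of −1.13 (SE 0.17, limma adjusted p 0.0112). With a replicate block the adjusted p was 0.0632, with 0.658% of starts called. Within 1 kb of the start, where no test could be fitted, 0 of 4 controls and 2 of 4 cKO libraries had an H3K4me1 peak, the widest of 1300 bp.

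The other H3K4me1 differences were not called. Kmt2b was covered over 3392, 3772, 3498 and 3405 bp in controls and over 2810, 3128, 2262 and 2445 bp in cKO, without overlap (log2 difference −0.40, limma adjusted p 0.0873), beside 11.5% of starts without overlap in the shorter direction. Kmt2a was covered over 5524, 4900, 4785 and 5182 bp in controls and over 5749, 5966, 6092 and 5905 bp in cKO, without overlap in the other direction (0.22, limma adjusted p 0.151), beside 5.25% of starts. Setd1a had means of 5573 bp in controls and 3334 bp in cKO (log2 difference −0.81, limma adjusted p 0.237), and Kmt2d had −0.16 (limma adjusted p 0.285). Both overlapped between genotypes, as did Setd1b, with means of 7477 and 7757 bp.

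The widest H3K4me1 peak within 1 kb of 2 starts differed more than the covered length. No H3K4me1 peak lay over either start itself in any library, so these peaks lie beside the starts. The covered length also counts neighbouring peaks. At Kmt2a the widest peak was 1728, 1748, 1901 and 1497 bp in controls 1 to 4 and 7968, 15926, 7869 and 14938 bp in cKO 1 to 4. No control came near the cKO values (log2 difference 2.62, limma adjusted p 0.0015), where 4.78% of 20662 starts were called and 4.53% had no overlap in the longer direction. At Setd1b it was 9034 and 352 bp in controls 1 and 2, with no peak in controls 3 and 4, and 13720, 13475, 8766 and 9092 bp in cKO 1 to 4, with overlap through control 1.

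**Figure D4:**
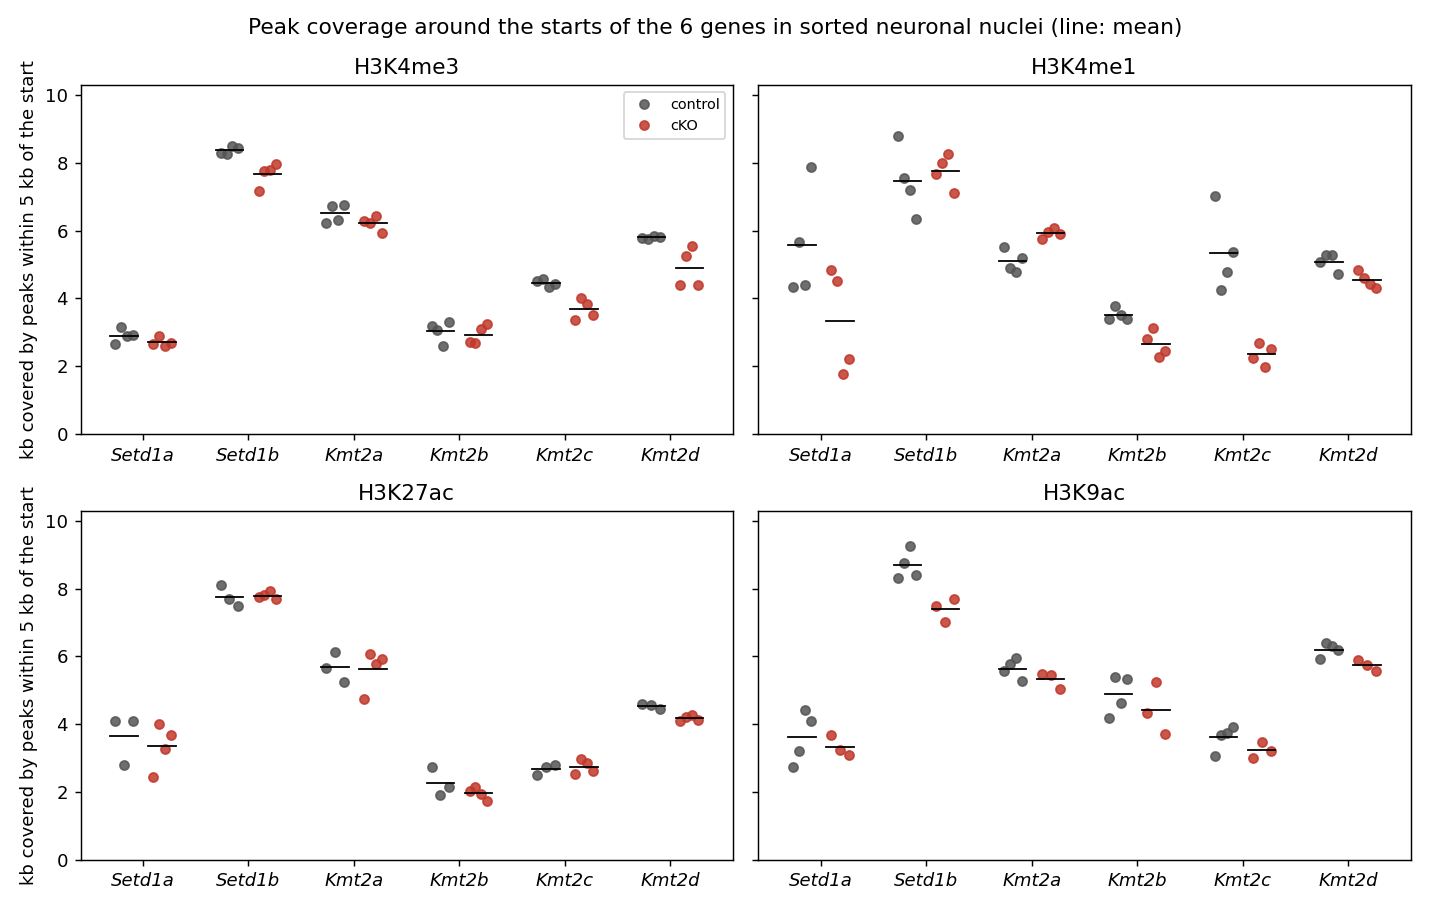
Length in kb covered by peaks within 5 kb either side of the start (y axis, at most 10 kb) for the 6 genes (x axis) in every library of the 4 marks, with controls in grey, cKO in red and a line at each group mean. Setd1b is covered furthest in every mark, and Kmt2c shows the largest gap between genotypes, from a mean of 5350 to 2362 bp for H3K4me1.

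H3K27ac and H3K9ac, acetylation marks of active promoters and enhancers, gave 0 calls among the 6 starts, against 0.424% of 19794 and 1.69% of 20323 starts. At an unadjusted p under 0.05 these were 0 and 1 of 6, beside 14.9% and 19.2% of all starts, and only limma was run. H3K27ac at Setd1b covered 8098, 7690 and 7500 bp in controls 1, 3 and 4 and 7740, 7806, 7918 and 7695 bp in cKO 1 to 4, with overlap. Kmt2d had shorter H3K27ac coverage without overlap (log2 difference −0.12, limma adjusted p 0.425), beside 11.7% of starts. H3K9ac at Setd1b covered 8317, 8747, 9271 and 8401 bp in controls 1 to 4 and 7496, 7003 and 7707 bp in cKO 1, 2 and 4. These did not overlap (log2 difference −0.23, limma adjusted p 0.18), as was seen in the shorter direction for 15.3% of starts. Kmt2d also had shorter H3K9ac coverage without overlap (log2 difference −0.11, limma adjusted p 0.417). The widest H3K9ac peak at Setd1b was 2806, 8331, 8413 and 8038 bp in controls and 1608, 2362 and 1667 bp in cKO, without overlap, as at 11.7% of starts in the shorter direction. Mean covered length there went from 8684 to 7402 bp, so more than 1 peak made up that length in cKO. Over the 12 alternatives for H3K9ac at Setd1b, the limma adjusted p ran from 0.155 to 0.694.

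**Figure D5:**
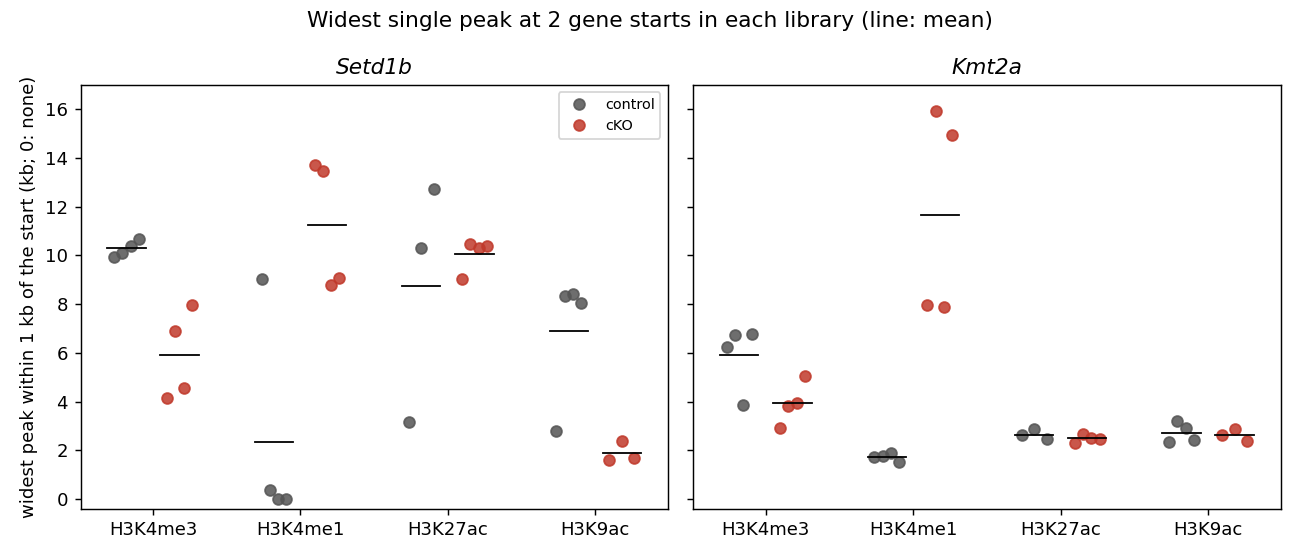
Width in kb of the widest single peak within 1 kb of the start (y axis, 0 where there is no peak) at Setd1b (left) and Kmt2a (right) for the 4 marks (x axis), in every library, with controls in grey, cKO in red and a line at each group mean. At Setd1b the widest H3K4me3 and H3K9ac peaks were narrower in every cKO library than in every control. The length covered within 5 kb, which also counts neighbouring peaks, had means of 7673 and 7402 bp in cKO against 8372 and 8684 bp in controls. At Kmt2a the H3K4me1 peak, which lay beside the start and not over it, was wider in every cKO library (7869 to 15926 bp against 1497 to 1901 bp).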

How the data were processed

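Per Ensembl ID, the deposited RNA files of 18 libraries give raw read counts. The 30 ChIP files as deposited held 1 peak list per library, with each peak's length, its −log10 q-value and its fold enrichment, which is the authors' ratio. Per the file headers, MACS 2 called peaks in each library against 1 input library per genotype. The aligner, counter and strandedness are not given in the sources used here. The submitters' processing notes name mm10 and GRCm38, so peaks were placed on RefSeq starts of GRCm38.p6.

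Counts were tested with edgeR 4.0.16 (TMM, filterByExpr, quasi-likelihood) over all genes, and calls were made at a Benjamini-Hochberg adjusted p under 0.05. Nothing in the labels says that replicates came from separate animals, so p-values measure the spread between these samples. Covered length plus 100 bp was tested on the log2 scale with limma 3.58.1, at starts with a peak in at least 3 libraries. Reads on rows that name no gene were 0. Scripts were tested on simulated data. The planned level per transcript length was replaced by CPM, because no transcript lengths were supplied.

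The 6 genes and all lists were chosen with earlier results of these data known. Named genes were the 6, every called list gene, up to 2 genes per list and comparison with the largest absolute log2 fold change among those with a mean log2 CPM of 1 or more, and the 3 genes most like each of the 6 among those with 3 or more. The genes most like Setd1a are not reported here. Alternatives were DESeq2 1.42.0, no filter on low counts, a minimum mean count of 10, other scaling (RLE or library size), a replicate block, lanes, a −log10 q of at least 5, windows of 1 kb, and leaving out each replicate. Windows of 10 kb, the widest peak, CPM per kb of gene span and leaving out the libraries with high Xist were added after seeing the data.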

Additional observations from a re-analysis of the deposited data

How the results depend on the processing

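The whole CA rise of Setd1b kept its direction in all 22 alternatives and its call in all but lane 1 (0.49), where 0 of the 6 genes were called. Leaving out a library gave 0.52 to 0.70. In the alternatives run, edgeR and DESeq2 called 0 of the other 5 in either genotype contrast. Of summary values under alternatives, 181 stayed close, 18 moved and 1 lost its call. Of single-gene values, 561 kept direction and call, 12 gained a call, 17 lost one and 40 turned direction.

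Per kb of gene span, Setd1b ranked 4 in cKO neuron RNA, 5 in control neuron RNA, 3 in cKO whole CA RNA and 4 in control whole CA RNA, and its shares were 8.54% (cKO neuron), 7.49% (control neuron), 18.6% (cKO whole CA) and 13.8% (control whole CA). A level per transcript length was not run.

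At the starts, H3K4me3 called 2 of 6 at a −log10 q of 5 or more, 0 within 1 kb, 2 within 10 kb and 2 by the widest peak, and 1 to 2 without 1 library. Long peaks extend past the window of 1 kb, so its count can miss changes at their ends. H3K4me1 called 0 at a −log10 q of 5 or more, 0 within 1 kb and 0 with the replicate block, and 1 to 2 without 1 library. Kmt2c H3K4me1 could not be fitted at the higher q, within 1 kb or by widest peak, since too few libraries had a peak.

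Direction turned for Kmt2c in whole CA RNA (0.013 in lane 1 and 0.0057 without the libraries with high Xist). For H3K4me1 it turned at the higher q for Kmt2d (1.21), Kmt2b (3.29) and Setd1a (2.45), within 1 kb for Kmt2d (0.18) and Setd1a (0.70), and within 10 kb for Setd1b (−0.047). It also turned for H3K4me3 at Kmt2c within 1 kb (0.012) and for H3K27ac at Setd1b (−0.019 within 1 kb, −0.077 within 10 kb). Without 1 library, neuron RNA ran from −0.15 to 0.045 for Setd1a, −0.046 to 0.16 for Kmt2a, −0.090 to 0.14 for Kmt2b and −0.10 to 0.24 for Kmt2d. Whole CA RNA ran from −0.072 to 0.032 for Kmt2c and −0.038 to 0.11 for Kmt2d. The difference between materials ran from −0.13 to 0.086 for Kmt2a, −0.19 to 0.047 for Kmt2b and −0.13 to 0.22 for Kmt2d. At Setd1b, H3K4me1 ran from −0.015 to 0.14 and H3K27ac from −0.019 to 0.036. The causes were not tested.

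Replicate numbers gave no consistent pairing of the samples. In RNA, deviations from the group mean matched best between equal numbers for neuron 2 (correlation 0.42) and whole CA 4 (0.28), and not for the other numbers. With a replicate block Setd1b had 0.60 in whole CA RNA, and edgeR called 327 genes in neurons and 839 in whole CA, against 539 and 640 without it. In neuron RNA, DESeq2 called 840 and fits without 1 library 207 to 482. The lanes called 207 and 224 in whole CA RNA.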

Other observations

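The starts of the partner and related genes were covered by neuronal H3K4me3 peaks at 44 starts of 33 genes. In cKO, 16 of these starts (36.4%) were called shorter with limma and 0 longer, beside 27.4% of all starts, and 12 genes held them, some through starts that share the same peaks. Wdr82, a subunit of the SETD1 complexes, had a log2 difference of −0.50 (limma adjusted p 0.000238) and Hcfc2 one of −0.55 (limma adjusted p 0.000582). Men1, Hcfc1, Pagr1a and Kdm6a, partners of the KMT2 enzymes, ran from −0.18 to −0.31, and the demethylase genes Kdm5c, Kdm1a and Kdm5b stood at −0.40, −0.29 and −0.12. Smyd2, Setd2 and Kmt5a completed the list. Of their transcripts, edgeR called Hcfc2 alone, lower in whole CA RNA, and 0 in neuron RNA, where 0 also had an unadjusted p under 0.05 and DESeq2 called 0. Pagr1a was not tested.

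For H3K4me1, 3 of 45 such starts were called shorter, all of Men1 (log2 difference −0.70 to −0.71), beside 5.39% of all starts. For H3K27ac and H3K9ac, limma called 0 of 44 starts each.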
